A study of Mus musculus with 6 samples.

Results

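Mast cells are resident immune cells of connective tissue, and 9 genes that mark them were followed in brown adipose tissue of mice on a fattening diet. The genes are Cpa3, Cma1, Mcpt4, Tpsb2, Tpsab1, Kit, Ms4a2, Fcer1a and Hdc. They were taken by name from the deposited expression tables, which hold 45320 Ensembl gene identifiers, and each of the 9 matched exactly 1 identifier. The list was chosen by the treated and untreated FPKM values of Cpa3, Cma1, Mcpt4, Tpsb2 and Kit, which were already known, so their difference between the groups is described here and supports nothing.

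The samples are whole brown adipose tissue of C57BL/6 mice that started a high-sugar, high-fat diet at 4 weeks of age. After 4 weeks on it the mice were divided: the untreated group (13, 14 and 15) stayed on that diet alone, and the treated group (17, 33 and 35) received it with RO5508887, a small-molecule inhibitor of the protease BACE1. Both groups carry the diet. The sex, the dose, the length of treatment and whether each sample is 1 animal are not given in the sources used here. The p-values therefore measure sample-to-sample spread alone, part of which can be technical. The tables of samples 33 and 35 were equal in all 45320 values and were counted as 1 library, treated 33/35, which leaves 3 untreated and 2 treated libraries.

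Mature mast cells store proteases, histamine and proteoglycans in granules and release them when IgE bound to its high-affinity receptor is cross-linked by antigen. Their survival in tissue depends on KIT, the receptor for stem cell factor. In mice, connective tissue mast cells carry the chymase MCPT4, the elastase-like CMA1, carboxypeptidase A3 and tryptases, whereas mucosal mast cells carry MCPT1 and MCPT2. In fat they lie in the connective tissue between adipocytes and along vessels.

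Levels are FPKM, fragments scaled by transcript length and by the number of mapped fragments, as the authors deposited them. Read totals were not known. The steps between low values placed the depth of untreated 14, untreated 15, treated 17 and treated 33/35 at 0.811, 0.880, 1.01 and 0.959 times that of untreated 13. Skeletal muscle transcripts differed widely between the libraries. The 31 matched muscle markers summed to 40618 FPKM in untreated 14, 16956 in treated 17 and 7291 in treated 33/35, but to 174 and 164 FPKM in untreated 13 and 15. The most abundant were Tnnt3, a troponin, and Atp2a1, a calcium pump, with means of 1374 and 1223 FPKM. Brown adipocyte markers were present in every library. Fabp4, a fatty acid carrier, had a mean of 2631 FPKM, and Ucp1, the heat-producing uncoupling protein, measured 227 FPKM in untreated 14 and 1119 to 1912 FPKM in the other 4.

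Of the 9 genes, 6 averaged 1 FPKM or more and entered the test across genes: Mcpt4, Cma1, Tpsb2, Cpa3, Kit and Hdc. Their mean levels, in that order, were 5.26, 4.99, 3.65, 3.25, 2.84 and 2.03 FPKM. The other 3 genes, Tpsab1, Fcer1a and Ms4a2, had means of 0.278, 0.270 and 0.0880 FPKM and were not tested, but each had a value above 0 in all 5 libraries. Among the first 6, and between Tpsab1 and Fcer1a, neighbours in this order differed by less than the larger of their SDs over the 5 libraries. The steps from Hdc to Tpsab1 and from Fcer1a to Ms4a2 were larger than that. Of the genes with any signal, 64.4% lay below Mcpt4 in mean level and 25.0% below Ms4a2, so these transcripts sit in the middle and lower range of the tissue. In bulk tissue, fewer mast cells and less RNA per mast cell cannot be told apart.

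**Figure D1:**
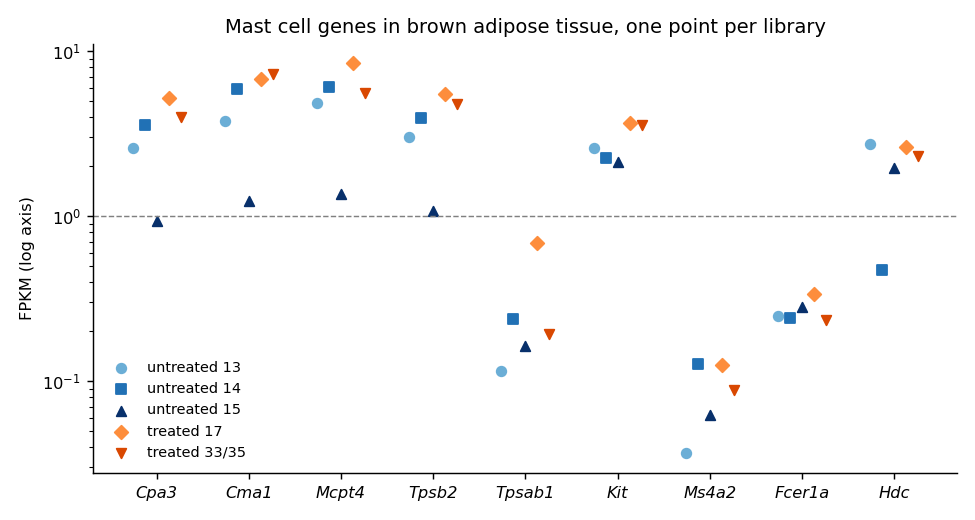
FPKM of the 9 mast cell genes (log axis) in each of the 5 libraries, with untreated libraries in blue and treated ones in orange and a dashed line at 1 FPKM. Cpa3, Cma1, Mcpt4 and Tpsb2 share a low point in untreated 15, at 0.938 to 1.36 FPKM, whereas the low point of Hdc is untreated 14, at 0.470 FPKM.

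The promoters of 4 members are shown because 3 of them, Cpa3, Cma1 and Mcpt4, had nearly the same order of libraries, whereas Hdc did not follow them. The RefSeq promoter table for GRCm38.p6 held 7 of the 9 genes, all except Tpsb2 and Tpsab1. Each sequence is the 250 bases before the RefSeq transcription start, read 5′ to 3′ on the strand of the gene. For Hdc this stretch lies within the GENCODE gene (126593667 to 126619299), whose annotated start is further upstream. Capitals mark matches on either strand to 4 hexamers, AGATAA with its variant AGATAG and, with the first letter changed, TGATAA with its variant TGATAG. These are letters bound by GATA factors, of which GATA2 is a known regulator of mast cell genes.
Cpa3 chr3:20242182-20242431 (- strand): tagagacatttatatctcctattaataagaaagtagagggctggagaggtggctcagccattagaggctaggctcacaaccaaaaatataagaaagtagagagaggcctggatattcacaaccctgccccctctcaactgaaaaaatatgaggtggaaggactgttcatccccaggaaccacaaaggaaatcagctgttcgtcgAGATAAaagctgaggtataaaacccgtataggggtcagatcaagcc
Cma1 chr14:55944676-55944925 (- strand): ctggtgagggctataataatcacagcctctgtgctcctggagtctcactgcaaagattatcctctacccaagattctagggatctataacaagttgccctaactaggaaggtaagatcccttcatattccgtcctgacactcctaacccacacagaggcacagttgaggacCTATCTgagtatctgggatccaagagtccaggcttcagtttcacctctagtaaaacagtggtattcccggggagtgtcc
Mcpt4 chr14:56062311-56062560 (- strand): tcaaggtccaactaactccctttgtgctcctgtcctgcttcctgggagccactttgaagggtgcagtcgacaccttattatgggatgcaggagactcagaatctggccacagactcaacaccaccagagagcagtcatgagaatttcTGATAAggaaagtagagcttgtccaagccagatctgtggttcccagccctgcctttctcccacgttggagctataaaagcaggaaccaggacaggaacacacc
Hdc chr2:126618679-126618928 (- strand): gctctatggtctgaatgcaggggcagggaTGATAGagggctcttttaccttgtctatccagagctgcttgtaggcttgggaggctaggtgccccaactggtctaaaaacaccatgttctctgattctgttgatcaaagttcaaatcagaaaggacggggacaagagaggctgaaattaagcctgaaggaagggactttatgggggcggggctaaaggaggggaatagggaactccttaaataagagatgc
The match lies 46 to 41 bases before the start in Cpa3, 79 to 74 bases in Cma1, where it is on the opposite strand, 103 to 98 bases in Mcpt4 and 221 to 216 bases in Hdc. Of the 7 promoters, 6 held at least 1 match, among them Ms4a2 with 3, and Kit held none. Of 27025 mouse promoters of the same length, 1 per gene, 27.1% held a match. A match is a run of letters and does not show binding.

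Cpa3 encodes carboxypeptidase A3, a metalloprotease stored in mast cell granules (chromosome 3, 20215620 to 20242181, minus strand, GRCm38). It measured 2.57 FPKM in untreated 13, 3.56 in untreated 14 and 0.938 in untreated 15, against 5.16 in treated 17 and 4.00 in treated 33/35. Both treated values lay above all 3 untreated ones, and untreated 15 stood far below the rest. The group means were 2.36 ± 1.33 FPKM (SD, n = 3) and 4.58 ± 0.820 FPKM (SD, n = 2), with a log2 difference of 0.95 (SE 0.49).

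Tpsb2 encodes tryptase beta 2, a trypsin-like protease that makes up much of the granule protein (chromosome 17, 25366305 to 25369098, plus strand). Its values were 3.0 FPKM in untreated 13, 3.91 in untreated 14 and 1.07 in untreated 15, against 5.50 in treated 17 and 4.79 in treated 33/35. The libraries fell in the same order as for Cpa3, and the groups did not overlap. The log2 difference was 0.96 (SE 0.49).

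Cma1, the elastase-like chymase, lies on chromosome 14 (55941451 to 55944675, minus strand). It measured 3.79, 5.88 and 1.23 FPKM without the drug (untreated 13, 14, 15) and 6.78 and 7.27 FPKM with it (treated 17, treated 33/35), a log2 difference of 1.06 (SE 0.59). Mcpt4, a chymotrypsin-like protease that cleaves matrix proteins, lies on the same chromosome (56059629 to 56062313, minus strand). It measured 4.88, 6.06 and 1.36 FPKM without and 8.41 and 5.59 FPKM with the drug. Here the groups overlapped, since treated 33/35 lay below untreated 14, and the log2 difference was 0.87 (SE 0.62).

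Within each library these 4 proteases kept nearly fixed proportions. Tpsb2 measured 1.07 to 1.20 times Cpa3 in the 5 libraries, a 1.12-fold range, while Cpa3 itself ranged 5.51-fold. Cma1 ran from 1.31 to 1.82 times Cpa3 and Mcpt4 from 1.40 to 1.90 times. The other members did not keep such proportions: relative to Cpa3, Kit ranged 3.59-fold, Hdc 15.8-fold, Tpsab1 3.87-fold, Fcer1a 5.14-fold and Ms4a2 4.67-fold. The 3 last of these rest on values below 1 FPKM.

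**Figure D2:**
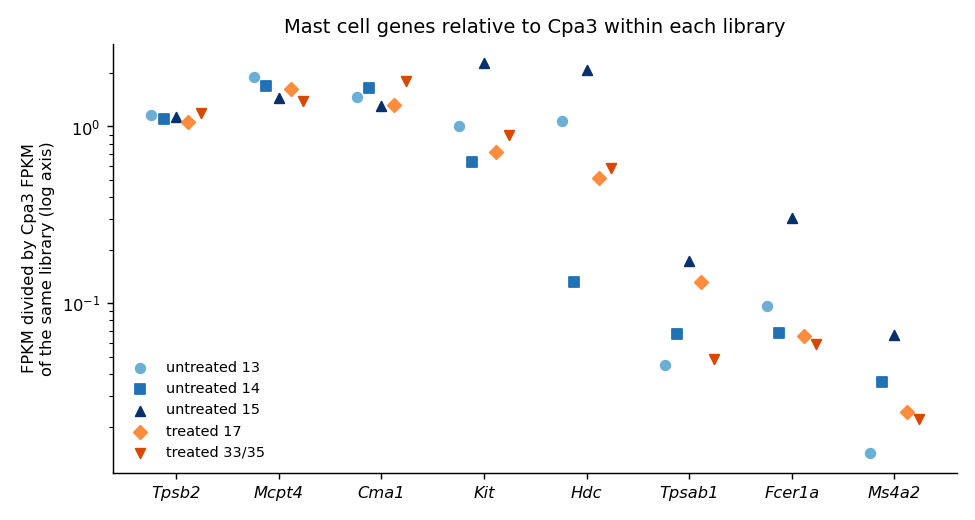
FPKM of 8 mast cell genes divided by the FPKM of Cpa3 in the same library (log axis), with 1 point per library. Tpsb2, Mcpt4 and Cma1 form tight groups between 1.07 and 1.90, whereas Hdc spreads from 0.132 in untreated 14 to 2.09 in untreated 15.

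Tpsab1 encodes tryptase alpha/beta 1, a further tryptase of mouse mast cells, for which the C57BL/6 strain is known to carry a splicing defect (chromosome 17, 25343245 to 25345562, minus strand). It was listed at 0.115 FPKM in untreated 13, 0.238 in untreated 14 and 0.163 in untreated 15, against 0.683 in treated 17 and 0.193 in treated 33/35. Treated 17 alone stood apart, and treated 33/35 fell among the untreated libraries. Although the tryptases are close relatives, their GENCODE transcripts shared no window of 50 bases with each other or with another gene. Windows shared with another gene made up 5.38% of Cma1 and 5.48% of Mcpt4, the latter with Cma2 and Mcpt9, which were both listed at 0 in every library.

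Many chromosomal neighbours of the chymases were listed at 0. From Cma1 to Gzmb on chromosome 14 (55941451 to 56262260) the annotation holds 15 protein-coding genes with identifiers in the tables. Cma1 and Mcpt4 were the 2 of them above a mean of 1 FPKM, and 11 were listed at 0 in all 5 libraries, among them Mcpt1 and Mcpt2, the proteases of mucosal mast cells, and Mcpt8, a basophil protease. A listed 0 is not proof of absence, since the read counts are unknown. Ctsg and Gzmb, proteases also made by other immune cells, did not exceed 0.0603 and 0.203 FPKM. In the tryptase block on chromosome 17 (25298394 to 25374442) Tpsb2 was the single gene of 6 above 1 FPKM, and 2 were listed at 0 in all libraries. Tpsg1, a membrane-anchored tryptase, ran from 0 to 0.166 FPKM and Prss34, a protease of basophils and mucosal mast cells, from 0 to 0.144 FPKM.

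**Figure D3:**
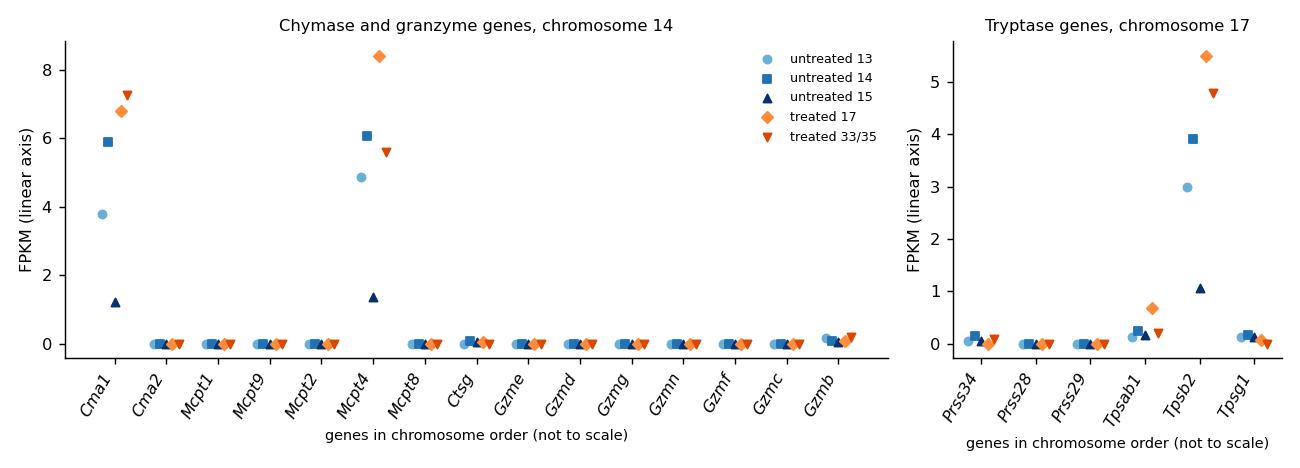
FPKM of the protein-coding genes of the chymase and granzyme block (left) and the tryptase block (right), in chromosome order with even spacing and 1 point per library. Cma1 and Mcpt4 reach 8.41 FPKM on the left while 11 genes stay at 0, and Tpsb2 reaches 5.50 FPKM on the right.

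Among the receptors, Kit encodes the receptor tyrosine kinase for stem cell factor (chromosome 5, 75574916 to 75656722, plus strand). It measured 2.58 FPKM in untreated 13, 2.25 in untreated 14 and 2.13 in untreated 15, against 3.69 in treated 17 and 3.56 in treated 33/35. The groups did not overlap and each was narrow, and the drop of untreated 15 seen in the proteases was nearly absent. The log2 difference was 0.55 (SE 0.17).

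The high-affinity IgE receptor is built from an alpha chain that binds IgE, a beta chain that amplifies the signal and gamma chains that carry it. Fcer1a, the alpha chain (chromosome 1, 173221284 to 173227214, minus strand), measured 0.248, 0.243 and 0.283 FPKM without and 0.339 and 0.235 FPKM with the drug. Ms4a2, the beta chain (chromosome 19, 11615523 to 11623719, minus strand), measured 0.0365, 0.127 and 0.0621 FPKM without and 0.126 and 0.0885 FPKM with it. The groups overlapped for both chains. Fcer1g, the gamma chain, which macrophages and other myeloid cells share, was far higher, at 9.45 to 16.0 FPKM over the 5 libraries.

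Hdc encodes histidine decarboxylase, the enzyme that makes histamine (chromosome 2, 126593667 to 126619299, minus strand). It measured 2.75 FPKM in untreated 13, 0.470 in untreated 14 and 1.96 in untreated 15, against 2.64 in treated 17 and 2.32 in treated 33/35. Its low library was untreated 14, the one with the most muscle and the fewest brown fat transcripts, and untreated 13 was its highest. The groups overlapped, and the log2 difference was 0.59 (SE 0.57). Of the 10 brown adipocyte markers, 9 had the same lowest library, all except Ppargc1a, with a sum of 2968 FPKM in untreated 14 against 6356 to 8556 FPKM in the other 4.

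All 6 tested members had higher means in the treated group, as had 8704 of the 13527 genes tested, while 4823 had lower means. The median log2 difference was 0.91 for the members against 0.06 over all genes tested. By limma with Benjamini-Hochberg adjustment over all genes, 0 of the 6 passed the threshold of 0.05, each with an adjusted p of 1, where 0.0444% of all tested genes passed, 0.0296% as higher and 0.0148% as lower. Before adjustment 1 member, Kit, had a limma p under 0.05, at 0.0246, as had 125 of all genes. In 4 of the 6, Cpa3, Cma1, Tpsb2 and Kit, both treated libraries lay above all untreated ones, compared with 5.5% of all genes. Since the members were listed with this contrast known, nothing is read from these counts.

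The size of the protease differences depended on untreated 15. Without it the log2 differences of Cpa3, Cma1, Mcpt4 and Tpsb2 were 0.52, 0.52, 0.31 and 0.52, and that of Kit was 0.50. Without untreated 14 they were 1.26, 1.47, 1.22 and 1.27, Kit was at 0.53, and Hdc was at 0.07, with 0 members past the threshold where 1.18% of all tested genes passed. Untreated 15 was the lowest library for 5 of the 6 tested members, and for 25.4% of all tested genes. Treated 17 was the highest for 4 of the 6, and for 5.74% of all genes.

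**Figure D4:**
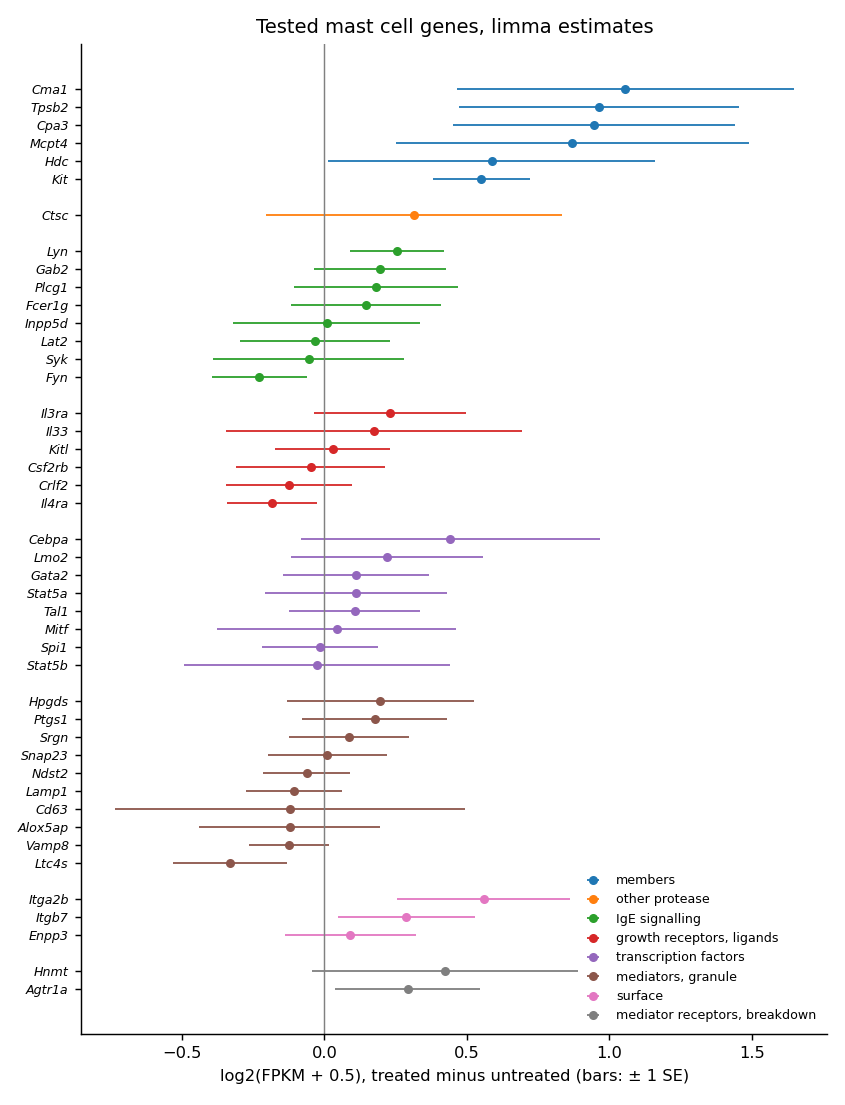
Differences between the groups on the log2(FPKM + 0.5) scale, treated minus untreated, for the 6 tested members and 38 other tested mast cell genes, with bars of 1 standard error either side. The members lie between 0.55 and 1.06, and the other genes between -0.33 and 0.56.

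Connective tissue content was compared next, because mast cells of fat sit in the matrix between adipocytes. The 26 matrix and fibroblast genes, collagens and matrix proteins such as Col3a1 and Dcn, summed to 1108, 1293 and 521 FPKM in untreated 13, 14 and 15 and to 917 and 1343 FPKM in treated 17 and treated 33/35. Untreated 15 was lowest for 24 of these 26 genes, as it was for the 4 granule proteases. Above that low point the orders parted, since treated 17 was the highest library for the protease sum and next to lowest for the matrix sum. Single genes differed from the sums: Cma1 was highest in treated 33/35, and among the matrix genes Fn1 was highest and Dcn next to highest in treated 17. Cpa3, Cma1, Mcpt4 and Tpsb2 together summed to 14.2, 19.4 and 4.59 FPKM without and 25.9 and 21.7 FPKM with the drug.

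Set against the matrix sum, the 4 proteases made up 1.28%, 1.5% and 0.881% in untreated 13, 14 and 15 and 2.82% and 1.61% in treated 17 and treated 33/35. This ratio was therefore also lowest in untreated 15, and both treated libraries lay above the untreated ones, treated 33/35 only narrowly. On the log2 scale the ratio differed by 0.84 between the groups, with an SD of 0.40 among the untreated libraries and no test. With the mean log2 value of the matrix list as a covariate in limma, the differences were 0.63 for Cpa3, 0.62 for Cma1, 0.48 for Mcpt4, 0.63 for Tpsb2, 0.53 for Kit and 0.83 for Hdc. Each had an adjusted p of 0.999 in that fit.

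Cpa3, Cma1, Mcpt4 and Tpsb2 were each lower in untreated 13 and 15, nearly without muscle transcripts, than in the other libraries. Cpa3 measured 2.57 and 0.938 FPKM there, against 3.56 in untreated 14, 5.16 in treated 17 and 4.00 in treated 33/35. Among the libraries with muscle the orders of muscle and proteases parted. Untreated 14 held 40618 FPKM of muscle markers and 5.88 FPKM of Cma1, whereas treated 33/35 held 7291 FPKM of muscle markers and 7.27 FPKM of Cma1. Untreated 13 and 15 were alike in muscle, at 174 and 164 FPKM, and differed 3.10-fold in the protease sum. Both treated libraries contained muscle transcripts and 2 of the 3 untreated libraries nearly none. When limma was given mean muscle marker expression (log2) as a covariate, the differences were 0.51 for Cpa3, 0.52 for Cma1, 0.38 for Mcpt4, 0.55 for Tpsb2 and 0.57 for Kit, with limma adjusted p from 0.0920 to 0.671. Hdc rose by 1.25 (SE 0.27, limma adjusted p = 0.0475) in that fit, in which 14.4% of all tested genes passed. Each covariate was estimated from 5 libraries.

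**Figure D5:**
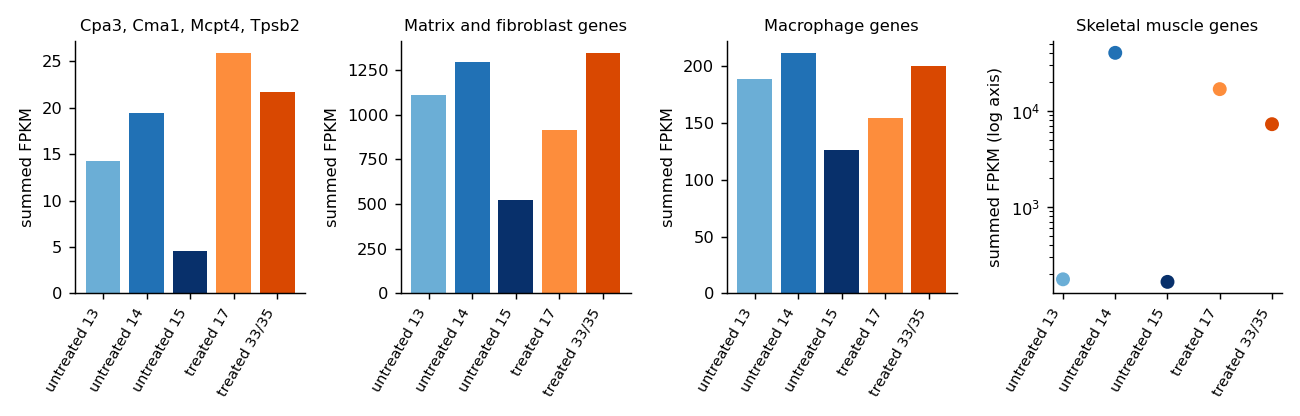
Summed FPKM in each library of 4 mast cell proteases, 26 matrix and fibroblast genes, 8 macrophage genes (bars, linear axes from 0) and 31 skeletal muscle genes (points, log axis). Untreated 15 is lowest in all 4 panels, treated 17 is highest for the proteases at 25.9 FPKM, and untreated 14 is highest for muscle at 40618 FPKM.

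Markers of other immune cells and of melanocytes were measured as well, since some share genes with mast cells. The 8 macrophage genes summed to 126 to 212 FPKM without and 155 to 200 FPKM with the drug, lowest in untreated 15, and were led by Lyz2, a lysozyme, and C1qa, a complement subunit, with means of 82.4 and 30.2 FPKM. Relative to that sum the proteases stood at 7.54%, 9.18% and 3.64% in untreated 13, 14 and 15 and at 16.7% and 10.8% in the treated libraries. Of the 5 basophil markers, Mcpt8 was listed at 0 in every library and the sum of 4.84 to 5.65 FPKM came mainly from Il6ra, a receptor of many cells, with a mean of 4.46 FPKM, followed by Cd200r3 with 0.495 FPKM. The 7 eosinophil markers summed to 0.848 to 3.67 FPKM over the 5 libraries. Ear2, a ribonuclease of the eosinophil family, made up most of that and was the single one tested, at 2.02, 3.47 and 0.848 FPKM in untreated 13 to 15 and 0.715 and 2.19 FPKM in the treated pair, lowest where the protease sum was highest. Prg2, a granule protein, reached at most 0.184 FPKM, Siglecf 0.0716 and Epx 0.0198, and Ear1 and Ear6 were listed at 0. Melanocytes also carry KIT, and their 6 markers summed to 1.21 to 1.56 FPKM without and 1.01 to 1.55 FPKM with the drug, led by Sox10 and Pmel with means of 0.843 and 0.177 FPKM, while Tyr, the pigment enzyme, reached at most 0.0269 FPKM. The part of these cells in the levels of Kit was not tested.

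Other genes of mast cell biology had a median difference close to that of all genes. Of 81 such genes, 38 were tested, and 24 had higher and 14 lower means in the treated group. Over all 13527 tested genes 8704 had higher and 4823 lower means, which is also the background for the splits of single lists below. The median log2 difference was 0.09 against 0.06 over all genes. By limma 0 of the 38 passed over all genes and 0 had an unadjusted p under 0.05. The sign of that median turned with the scaling, at -0.24 when the libraries were centred on the matrix list, where the median of all genes was -0.27. Of the 43 genes below the filter, 6 were listed at 0 in all libraries, 5 of them proteases. The median therefore leaves out low mast cell genes such as Mrgprb1, Mrgprb2 and Tpsg1. It includes abundant genes such as Lamp1, a lysosomal protein, and Cebpa, also an adipocyte factor, with means of 228 and 182 FPKM.

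Genes of IgE receptor signalling had small differences. Of 13, 8 were tested, with 5 higher and 3 lower means and 0 passing. Lyn, the kinase that starts the signal, measured 7.97, 6.12 and 7.05 FPKM without and 8.39 and 8.53 FPKM with the drug, a log2 difference of 0.25 (SE 0.16). Fyn, a related kinase, had -0.23 (SE 0.17). Plcg1, a phospholipase, had 0.18 (SE 0.29) and Fcer1g 0.15 (SE 0.26). In both treated libraries Lyn lay above all untreated ones, as did 5.5% of all genes, and Fyn below them, as did 3.18%, and neither passed the test.

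Of 10 growth factors and receptors of mast cells, 6 were tested, 3 with higher and 3 with lower means, and 0 passed. The other 4 were below the filter, among them Il9r, the interleukin 9 receptor, at 0 to 0.0604 FPKM. Kitl, stem cell factor, the ligand of KIT, measured 20.1, 16.4 and 22.4 FPKM without and 21.9 and 18.1 FPKM with the drug, a log2 difference of 0.03 (SE 0.20). The ligand was thus several times more abundant per length than its receptor in each library. Il4ra, the interleukin 4 receptor, had -0.18 (SE 0.16), Csf2rb, the shared beta chain of the interleukin 3 receptor, -0.05 (SE 0.26), and Il3ra 0.23 (SE 0.27).

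Among 10 transcription factors 8 were tested, 6 with higher and 2 with lower means, and 0 passed. Gata2 measured 3.37, 2.80 and 4.67 FPKM without and 4.35 and 3.43 FPKM with the drug, with its top value in untreated 15, where the proteases were lowest. Mitf, which mast cells need for their granule genes, measured 4.63 FPKM in untreated 14 and 1.79 to 2.77 FPKM elsewhere. Cebpa, also an adipocyte factor, had a log2 difference of 0.44 (SE 0.52), Lmo2 0.22 (SE 0.34), Stat5a 0.11 (SE 0.32) and Stat5b -0.03 (SE 0.47). Many of these factors are made by other cells of the tissue too.

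Granule and mediator genes were tested in 10 of 16 cases, 4 with higher and 6 with lower means, and 0 passed. Srgn, the proteoglycan core that holds the proteases in the granule, measured 29.8, 22.5 and 30.5 FPKM without and 32.1 and 26.3 FPKM with the drug. It did not drop in untreated 15, and other blood and endothelial cells make it as well. Ltc4s, which makes leukotriene C4, measured 37.2, 26.3 and 30.0 FPKM without and 25.0 and 23.8 FPKM with the drug, a log2 difference of -0.33 (SE 0.20). Vamp8, a granule fusion protein, had -0.12 (SE 0.14), and the lysosomal proteins Lamp1 and Cd63 -0.11 (SE 0.17) and -0.12 (SE 0.61). For Ltc4s and Vamp8 both treated libraries lay below all untreated ones, as for 3.18% of all genes.

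On the cell surface, the mast cell receptors Mrgprb1 and Mrgprb2 reached at most 0.524 and 0.288 FPKM, below the filter. Mrgprb2 ranked the libraries as Cma1 did. From low to high it read 0.0483 (untreated 15), 0.0850 (untreated 13), 0.157 (untreated 14), 0.231 (treated 17) and 0.288 FPKM (treated 33/35). Mrgprb1 did not separate the groups, since treated 17, at 0.306 FPKM, lay below untreated 14 and 15. Tpsg1 went the other way, with 0.0662 FPKM in treated 17 and 0 in treated 33/35, below all untreated libraries. None of these low genes was tested. Itga2b, an integrin of platelets and young mast cells, measured 0.783, 1.65 and 1.34 FPKM without and 1.92 and 2.15 FPKM with the drug, a log2 difference of 0.56 (SE 0.30). Itgb7, which directs mast cell progenitors to tissues, had 0.29 (SE 0.24) and Enpp3 0.09 (SE 0.23). Ctsc, the peptidase that activates granule proteases, measured 12.2, 23.4 and 6.93 FPKM without and 17.0 and 14.7 FPKM with the drug, lowest in untreated 15 like the proteases but highest in untreated 14. Its log2 difference was 0.32 (SE 0.52).

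Receptors for mast cell products and the enzymes that clear histamine were mostly low, with 2 of 12 tested. Hnmt, which inactivates histamine inside cells, measured 28.4, 10.7 and 24.7 FPKM without and 23.8 and 29.4 FPKM with the drug, and like Hdc was lowest in untreated 14. Its log2 difference was 0.42 (SE 0.47). Agtr1a, the receptor of angiotensin II, a peptide that chymases can generate, had 0.29 (SE 0.25). The histamine receptors Hrh1 and Hrh2 reached at most 0.321 and 0.884 FPKM.

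The genes nearest to the members in pattern were sought among all tested genes by the root mean square difference from the mean centred log2 profile of the 6 tested members over the 5 libraries. Tpsb2 and Cpa3 lay 0.200 and 0.209 from that mean, Mcpt4, Kit and Cma1 0.315 to 0.345, and Hdc 0.750. The 6 nearest other genes lay 0.130 to 0.203 from it: Errfi1, a feedback inhibitor of the EGF receptor, Sgk1, a kinase induced by serum and glucocorticoids, Marcksl1, Chst12, a chondroitin sulfotransferase, Ncf4, a subunit of the phagocyte oxidase, and Adamts1, a secreted metalloprotease. Errfi1 measured 15.5 FPKM in untreated 13, 12.5 in untreated 14 and 6.62 in untreated 15, against 24.4 in treated 17 and 21.2 in treated 33/35, and Sgk1 34.4, 34.6 and 21.9 FPKM without and 54.7 and 42.7 FPKM with it. These 6 genes were picked by that profile, which is lowest in untreated 15 and highest in the treated libraries. Their low and high libraries follow from the choice, and nothing is read from them. Over 5 libraries and 13527 genes some profiles lie this close without any link.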

How the data were processed

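Whole brown fat was lysed in Trizol for total RNA, from which Illumina total RNA libraries were prepared, per the labels' protocols. The authors deposited FPKM values, 1 table per sample, per the file headers. The submitters' processing notes name CASAVA 1.7 and GRCm38. Which aligner and quantifier were used, and with which gene models, is not given in the sources used here. Read totals are unknown.

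Identifiers were joined to GENCODE M21 (GRCm38) for symbols and positions: 44395 of 45320 matched and 925 did not. The test across genes kept those averaging 1 FPKM or more in the 5 distinct libraries and took treated minus untreated on the log2(FPKM + 0.5) scale, which understates changes of low genes. It was limma 3.58.1 under R 4.3.3, two-sided, with a variance trend and a Benjamini-Hochberg adjusted p of 0.05 as threshold, tested on simulated data. Sums, ratios and plots were made in Python 3.11.15 (numpy 2.4.6, pandas 2.3.3, matplotlib 3.10.9).

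The members and lists were chosen with earlier results of these data known. From each further mast cell list the text names tested genes past the threshold, the 3 of highest mean and the 2 of smallest p; from lists of other cells, the 2 of highest mean; and the 6 genes nearest in pattern, without unnamed models and pseudogenes. Srgn, Gata2, Mitf, Mrgprb1, Mrgprb2, Hrh1, Hrh2, Ctsc, Il9r, Mcpt8, Ppargc1a, Fn1, Ear1, Ear6, Siglecf, Epx, Tyr and the neighbouring proteases were named after their values were seen. Alternatives changed the pseudocount, filter, scaling, variance model, weights, covariates and libraries.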

Additional observations from a re-analysis of the deposited data

How the results depend on the processing

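The estimated log2 difference of all 6 tested members stayed above 0 under all 17 alternatives. The alternatives reuse the same libraries, and the members were listed with this contrast known, so nothing is read from the shared sign. The log2 differences ran from 0.51 to 1.26 for Cpa3, 0.52 to 1.47 for Cma1, 0.31 to 1.22 for Mcpt4, 0.52 to 1.27 for Tpsb2, 0.22 to 0.63 for Kit and 0.043 to 1.25 for Hdc. The number of members past the threshold was 0 in 16 alternatives, with 0 to 4 members at an unadjusted limma p under 0.05, and was 1, Hdc, with the muscle covariate. Among the other mast cell genes 3 passed with that covariate, Cebpa (1.06) and Hnmt (0.99) as higher and Stat5b (-0.59) as lower, and 0 otherwise. In that fit 14.4% of all tested genes passed, so 3 of 38 is below the share over all genes. The count of 4 members at an unadjusted limma p under 0.05 came with array weights and without untreated 14. In those 2 fits 1447 of 13527 and 1634 of 13368 tested genes had such a p.

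Over all genes, 6 passed by limma, 4 higher and 2 lower, compared with 1 higher and 3 lower when centred on the matrix list. The count was 2 with a pseudocount of 0.1, 10 with array weights and 1953 with the muscle covariate. It was 0 without a filter and 0 with the matrix covariate, with 522 and 130 genes at an unadjusted p under 0.05. Leaving out 1 library gave 0 to 158 genes: 158 without untreated 14 and 0 without each of the other 4 libraries, with 85 to 118 genes at an unadjusted p under 0.05. With 1 treated library left, that library was assumed to vary like the untreated ones. The cause of these shifts was not tested.

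The median of the other mast cell genes changed sign to -0.085 with quantile normalization, -0.022 when centred on the median of tested genes, -0.24 when centred on the matrix list, -0.020 with the muscle covariate, -0.029 with the matrix covariate and -0.0096 without untreated 15. Leaving out 1 library gave -0.0096 to 0.11 for it. The median of all genes moved from 0.06 to -0.05 when centred on the median of tested genes and to -0.27 when centred on the matrix list. The log2 ratio of the 4 proteases to the matrix list differed by 0.84, and by 0.64 on mean log2 values. The choice of FPKM sum as denominator cancels in this ratio and tests nothing. With read totals unknown, no counting error could be given for Tpsab1, Fcer1a and Ms4a2.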

Other observations

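The granule proteases were also set beside endothelial, lymphoid and nerve markers. Relative to the summed FPKM of 8 endothelial genes, led by Cdh5 and Pecam1, Cpa3, Cma1, Mcpt4 and Tpsb2 together stood at 6.35%, 11.0% and 2.24% in untreated 13, 14 and 15 and at 12.3% and 8.18% in treated 17 and treated 33/35, so on this scale the groups overlapped. Ighm, the heavy chain of immunoglobulin M made by B cells, measured 82.8, 71.8 and 22.7 FPKM without and 40.2 and 50.8 FPKM with the drug, lowest in untreated 15 like the proteases but highest in untreated 13. Trac, the constant part of the T cell receptor alpha chain, measured 1.82, 1.82 and 1.32 FPKM without and 0.577 and 1.44 FPKM with the drug, with its lowest value in treated 17, where the protease sum was highest. Jchain, of plasma cells, and Nkg7, of cytotoxic cells, had means of 0.849 and 0.459 FPKM. Schwann cell and nerve genes were led by S100b and Mbp, with means of 133 and 17.3 FPKM. Untreated 15 was the lowest library for 4 of the 5 tested and untreated 14 for 1. Like the brown adipocyte sum, the sum of this list was lowest in untreated 14, at 74.9 FPKM against 163 to 216 FPKM elsewhere.

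Of the remaining cell types, neutrophil genes were low, with means of 1.42 FPKM for S100a8 and 1.20 FPKM for S100a9. The red cell globins Hbb-bs and Hba-a2 averaged 585 and 544 FPKM and were highest in untreated 13, at 1180 and 1018 FPKM. The pericyte and smooth muscle genes Rgs5 and Acta2 averaged 120 and 33.9 FPKM. Rgs5 was highest in untreated 15, where the 4 proteases were lowest, whereas Acta2 was lowest there.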
